A study of Mus musculus with 32 samples.

Results

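The genes described here encode the nuclear part of respiratory complexes II, III and IV, the electron carrier cytochrome c, and the ATP synthase, which is also called complex V. They were taken by symbol from the table of reads on 3′UTRs: Sdha to Sdhd, Cyc1, Cycs, and every symbol that starts with Uqcr, with Atp5, or with Cox followed by a digit from 4 to 8, leaving out pseudogene symbols that end in -ps. This gave 50 of the 44081 genes in the table, of which 4 belong to complex II, 9 to complex III, 18 to complex IV and 18 to complex V, and the last is the cytochrome c gene. The name rule also takes in a few genes that are not subunits of their complex, such as Cox7a2l, which helps complexes to join into supercomplexes, and Atp5sl.

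RNA was compared between the soma and the dendrites of 16 single hippocampal neurons, taken from C57BL/6 mice at embryonic day 18 and kept in culture for 15 days. Both compartments of a neuron were drawn into separate tubes with micropipettes, so each neuron gave 1 soma library and 1 dendrite library and the 32 libraries are paired by neuron. The labels give no treatment and no altered gene, and all neurons were grown alike, so the compartment is the one labelled difference between the groups. The aRNA method, which copies poly(A) RNA by in vitro transcription, was run for 3 rounds on neurons 1 to 4 and for 2 rounds on the remaining 12, alike for soma and dendrites of a neuron. The labels record added ERCC spike-in RNA for 14 of the neurons and none for neurons 1 and 2, whose libraries held 59 to 80 spike-in reads each. The neurons came from several cultures and days, which the labels do not tie to single neurons.

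Dendrite libraries held between 646521 and 6954420 reads on 3′UTRs and soma libraries between 925525 and 21169974. The precision of each value below rests on the spread between neurons, since reads without molecular identifiers are not independent molecules. In the edgeR test used below, the spread of a gene is also weighed with that of other genes. Mitochondrially encoded RNA took 15.3% ± 9.80 (SD, n = 16) of dendrite reads and 2.02% ± 2.13 (SD, n = 16) of soma reads. All 6 pyramidal neuron markers passed the filter on low counts, and their summed level was between 404.5 and 6935 CPM (counts scaled for library size) in dendrites and between 104 and 2520 in somas. Of these markers, only Map2, which encodes a dendritic microtubule protein, passed the test between compartments. Its median was 2302 CPM in dendrites, beside 2669 for the sum and 10.8 (Neurod6) to 47.0 (Slc17a7) for the other markers. The log2 fold changes of the others, dendrites over somas, ran from -0.80 for Grin1, the only one below 0, to 2.98 for Slc17a7. The 6 astrocyte markers summed to between 0 and 1675 CPM in dendrites and between 0.541 and 514 in somas, with Gfap and Aldh1l1 at a median of 0 in both compartments. Slc1a2 had the highest medians of the 6, 141 CPM in dendrites and 146 in somas. The medians of Slc1a3 were 11.8 and 2.32 CPM, and Aqp4 and Gja1 had 2.01 and 1.57 in dendrites and 0 in somas. Markers of microglia, oligodendrocytes and endothelial cells had summed medians of 12.0, 8.78 and 1.70 CPM in dendrites and of 0.420, 1.59 and 0.227 in somas. Cardiomyocyte markers had summed medians of 0.475 and 0.186 CPM in dendrites and somas, and Myh6 and Tnnt2 had no read.

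Oxidative phosphorylation passes electrons along a chain of protein complexes in the inner mitochondrial membrane and uses the resulting proton gradient to make ATP. Complex II takes electrons from succinate, complex III hands them to cytochrome c, complex IV gives them to oxygen, and the ATP synthase lets protons flow back through its membrane part while its F1 head makes ATP. The subunits at the catalytic heart of complexes III and IV are encoded partly in mitochondrial DNA, whereas the many small subunits around them are made from nuclear genes and imported. Dendrites hold mitochondria and are known for a high demand for ATP, for ion pumping and synaptic transmission.

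The gene counts used for the calls take in reads over all merged 3′UTRs of a gene. As a small part of these regions, annotated 3′ ends of the members that differed between the compartments are shown here. They stand beside the ends of a pair of complex III subunits that lay on the other side. Each run is 30 bases of the annotated 3′UTR, near or at the last base of the mRNA, in the 5′ to 3′ direction of the mRNA, from the GENCODE M21 transcripts on GRCm38. Capitals mark the last polyadenylation signal, AATAAA or its common variant ATTAAA, where the last 40 bases hold one on the strand of the mRNA. The files give no coordinates for their own ends, so an end used in these neurons can differ from the annotated one.
Cox6a1 (chr5:115345643-115345672, minus strand): AATAAAtaacttaaactcagatggtccgtg
Cox8a (chr19:7215154-7215183, minus strand): AATAAAgtctatttaaaccttgctccagaa
Cox7c (chr13:86044816-86044845, minus strand): aaaattgtaAATAAActaatgacataaaga
Cox4i1 (chr8:120674178-120674207, plus strand): tccatgctAATAAAagaccagtttacgtgg
Cox6b1 (chr7:30616861-30616890, minus strand): tttaaaatgaagggtagatttctttgtaaa
Cox7a2 (chr9:79755361-79755390, minus strand): tcacttgagAATAAAttcctggtaatacca
Cox6c (chr15:35931976-35932005, minus strand): ttcAATAAAcagtaattatatggacagtaa
Uqcr11 (chr10:80402997-80403026, minus strand): cagcATTAAAccttattcttatgccttgga
Uqcrq (chr11:53427922-53427951, minus strand): caaccataaaattattttggttgctacttc
Atp5j2 (chr5:145183698-145183727, minus strand): AATAAAaggtgactggttcacatactgctt
Atp5k (chr5:108433244-108433273, minus strand): gAATAAAgcttcattgtgtgatgctgtggc
Uqcrc2 (chr7:120659495-120659524, plus strand): gccccatgtacagtaaacctgcgtttctga
Uqcrfs1 (chr13:30540308-30540337, minus strand): tttgatATTAAAcctttcacagttatggaa

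Of the 11 members that were higher in dendrites, 8 carried AATAAA, 1 carried ATTAAA (Uqcr11) and 2 carried neither (Cox6b1 and Uqcrq) in these 40 bases. Among the 48 members found in the annotation, 70.8% carried AATAAA and 16.7% carried ATTAAA without it. Of 21669 annotated mRNAs, taken as 1 per gene, the shares were 57.3% and 12.5%. The match is a description of the letters, and no match says only that they are not in this window.

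Subunit genes of complexes III, IV and V were among those higher in dendrites than in the soma of the same neuron: 7 for complex IV, 2 for complex III and 2 for complex V. No member was called higher in somas at the same threshold. The comparison used edgeR's quasi-likelihood test with neuron as a block, over the 10880 genes that had a read in 16 or more libraries, at a Benjamini-Hochberg adjusted p of at most 0.05. It called 11 of the 43 members tested higher in dendrites, against 0.827% of all genes tested in that direction. These were 7 of 12 tested members of complex IV, 2 of 8 of complex III and 2 of 18 of complex V, with 0 of 4 in complex II and 0 of 1 for cytochrome c. Scaling by spike-in reads in place of the gene counts put all 11 below 0 and called none of them in either direction. Their log2 fold changes then ran from -0.21 ± 0.81 for Cox6a1 to -1.05 ± 0.85 for Atp5k (edgeR, adjusted p = 0.815 and 0.256). Without spike-in scaling, edgeR called 0 members higher in somas, against 5.71% of all genes. There, 3 members were at an unadjusted p under 0.05, where 2901 of all 10880 genes were. DESeq2 called 5 members higher in somas and 46.2% of all genes. The members tested had a median log2 fold change, dendrites over somas, of 0.76, and the median over all genes tested was -1.49, so the members lay 2.26 above the median gene. Of the 43, 31 had a fold change above 0 and 41 one above that of the median gene, and the other two were Atp5s and Atp5sl.

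**Figure D1:**
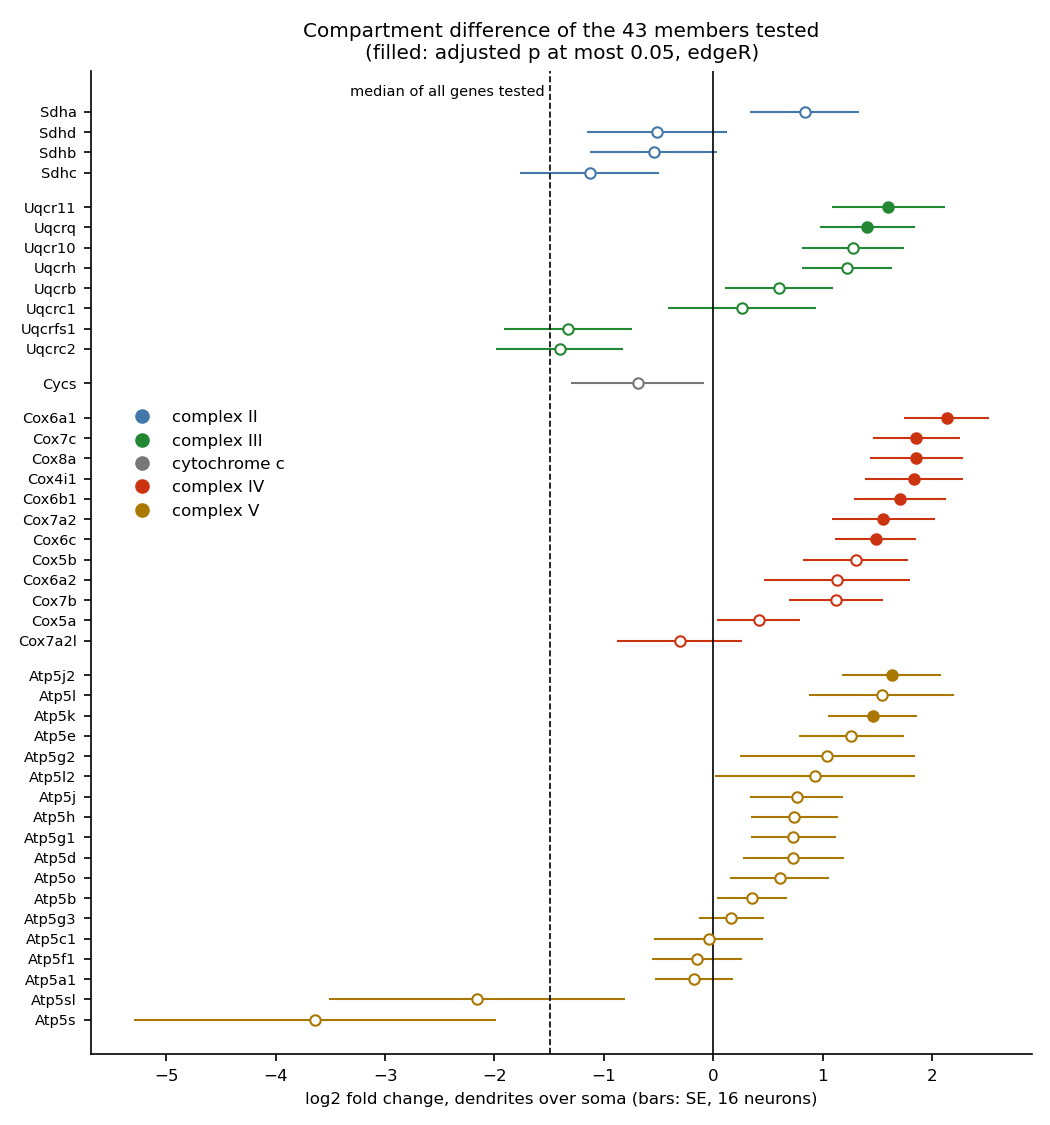
Log2 fold change, dendrites over soma, of each of the 43 members tested, grouped by complex, with the standard error from edgeR over 16 neurons and the median of all genes tested at -1.49 as a dashed line. The 11 filled points are members called higher in dendrites with TMM scaling. With spike-in scaling all 11 are below 0 and none of them is called. Most subunits of complex IV lie to the right of those of complex II.

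Complex IV, cytochrome c oxidase, had the highest median of the complexes, with 1.52 on the log2 scale over 12 tested members. Its 10 widely expressed subunits all had fold changes above 0, from 0.41 for Cox5a to 2.14 for Cox6a1, and their median was 1.63. With spike-in scaling, the subunits of this set whose values are given further on were below 0, and Cox5a was called higher in somas. No such value is given for Cox5b.

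Cox6a1, the widely expressed form of subunit 6a, ranged in dendrites from 274 to 15150 CPM (3′UTR reads scaled for the TMM-adjusted size of the library) with a median of 3843, and in somas from 261 to 3136 with a median of 679.7. The groups overlapped, and dendrites were higher in 14 of the 16 neurons, with neurons 2 and 14 the other way round. Its log2 fold change was 2.14 ± 0.39 (SE), or 4.40-fold (edgeR, adjusted p = 0.00182), and it was the member with the largest change. Cox8a, the widely expressed form of subunit 8, had between 273 and 5628 CPM in dendrites (median 2644) and between 368 and 1193 in somas (median 683). It was 1.86 ± 0.43 higher on the log2 scale (edgeR, adjusted p = 0.0124), again in 14 of 16 neurons with the same exceptions.

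Cox7c, a small membrane-spanning subunit, spanned 472 to 16800 CPM in dendrites with a median of 2054, and 222 to 2462 in somas with a median of 387. Only in neuron 2 was the soma the higher compartment, and the log2 fold change was 1.86 ± 0.40 (edgeR, adjusted p = 0.0103). Cox4i1, the main form of the regulatory subunit 4, had 97.5 to 5800 CPM in dendrites (median 1234) and 140.5 to 1290 in somas (median 303). The log2 fold change of Cox4i1 was 1.83 ± 0.45 (edgeR, adjusted p = 0.0157), with neurons 2 and 14 as exceptions. For Cox6b1, a subunit on the intermembrane side, dendrites ranged from 249 to 6207 with a median of 1766 and somas from 159.6 to 1208 with a median of 544. That gave a log2 fold change of 1.71 ± 0.42 (edgeR, adjusted p = 0.0159), and the same 2 neurons went the other way.

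Cox7a2, the widely expressed form of subunit 7a, had between 129 and 2430 CPM in dendrites (median 1080) and between 129 and 871 in somas (median 283). Its log2 fold change was 1.56 ± 0.47 (edgeR, adjusted p = 0.0380), and only the neuron 14 pair went against it. Cox6c ranged from 598 to 14810 in dendrites with a median of 3224 and from 462 to 3755 in somas with a median of 1105. Here the log2 fold change was 1.49 ± 0.37 (edgeR, adjusted p = 0.0167), and dendrites were lower in neurons 2 and 14. In all 7 genes the ranges of the compartments overlapped, and all 7 were also called by edgeR when the pairing by neuron was left out.

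**Figure D2:**
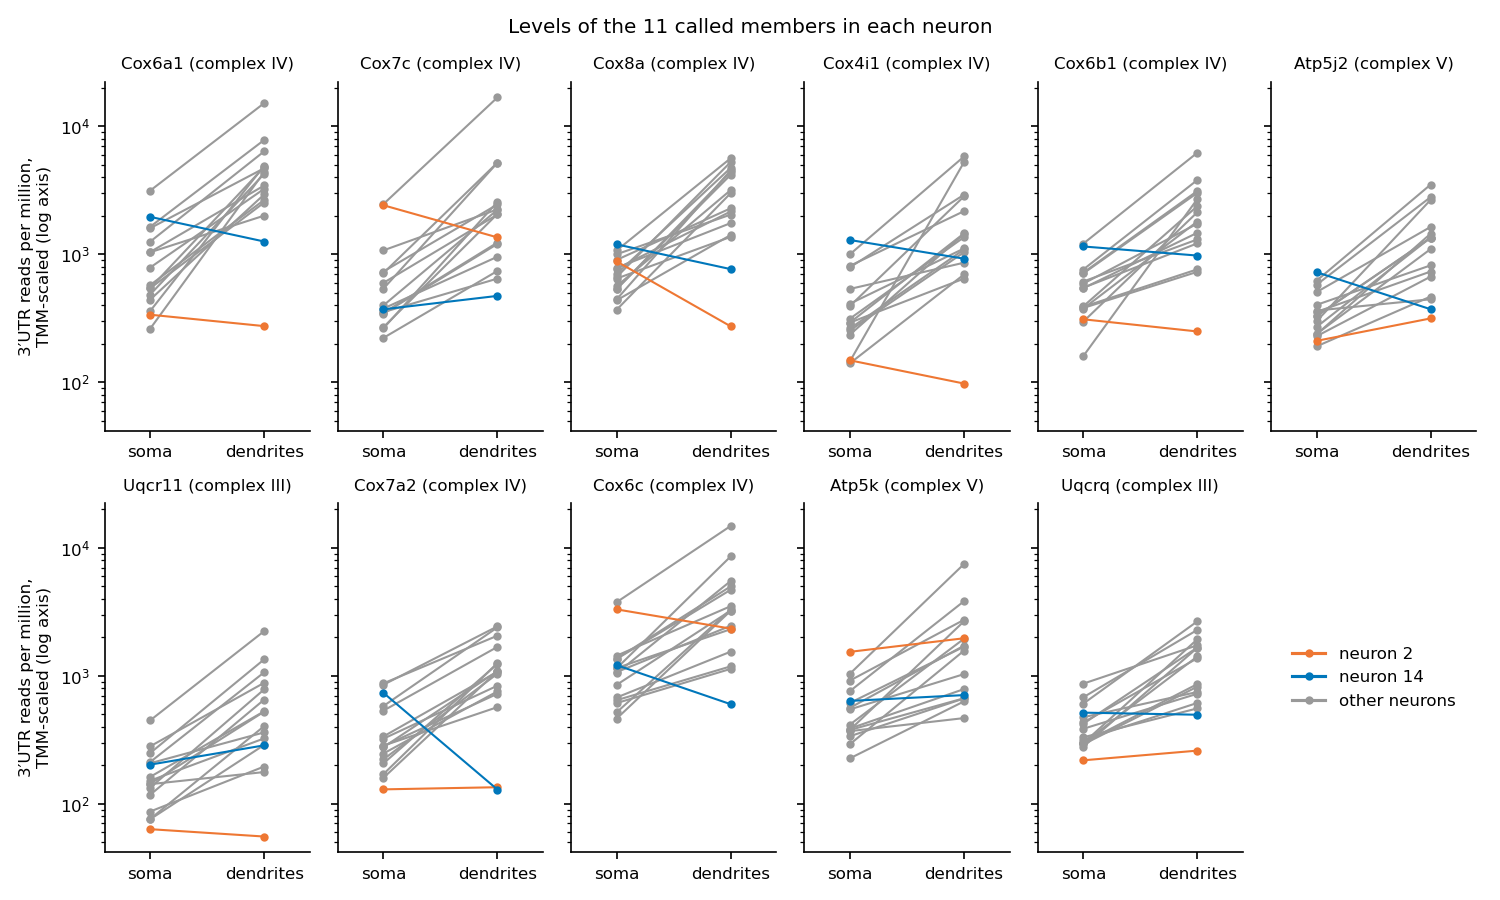
TMM-scaled CPM on 3′UTRs, on a log axis, of the 11 members called higher in dendrites, with a line from the soma to the dendrites of each of the 16 neurons. Lines rise in 14 to 16 neurons for each gene, and the lines that fall belong to neuron 2 (orange) or neuron 14 (blue).

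The remaining subunits of complex IV did not pass the threshold. Cox5b had a log2 fold change of 1.30 ± 0.48 (edgeR, adjusted p = 0.0770) and Cox7b one of 1.12 ± 0.43 (edgeR, adjusted p = 0.0863). Cox5a, a subunit on the matrix side, was at 0.41 ± 0.38 (edgeR, adjusted p = 0.437), with dendrites higher in 10 of 16 neurons. Cox7a2l had the lowest value in the group, -0.31 ± 0.57 (edgeR, adjusted p = 0.718), and its median was 469 CPM in dendrites and 513 in somas.

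Subunits 4, 6a, 6b, 7a, 7b and 8 exist as a widely expressed form and a form known from heart and skeletal muscle, lung or testis, and these second forms were nearly absent with 1 exception. Cox6a2, the heart and muscle form of subunit 6a, had reads in 15 dendrite and 15 soma libraries, with medians of 259 and 129 CPM. It had no read in either compartment of neuron 13, its highest value was 3334 in the dendrites of neuron 3, and its log2 fold change was 1.13 ± 0.67 (edgeR, adjusted p = 0.233). Cox4i2 had no read in any library. Cox7a1 had no read in dendrites and was read in 6 somas, with up to 17.3 CPM. Cox7b2 was read in 5 dendrite and 3 soma libraries, Cox6b2 and Cox8c in 2 dendrite and 1 soma library each, and Cox8b in 1 of each. These 6 genes failed the filter and were not tested.

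In complex III, which oxidises ubiquinol, the 5 small subunits had a median log2 fold change of 1.28, and all were above 0. Uqcr11 ranged from 55.3 to 2231 CPM in dendrites with a median of 464 and from 63.2 to 447 in somas with a median of 147. It was higher in the dendrites of 15 neurons, all but neuron 2, with a log2 fold change of 1.60 ± 0.52 (edgeR, adjusted p = 0.0493), just inside the threshold. Uqcrq, the ubiquinone-binding small subunit, had 259.6 to 2659 CPM in dendrites (median 1114) and 218 to 866 in somas (median 357). Dendrites were higher in all neurons but neuron 14, and the log2 fold change was 1.41 ± 0.43 (edgeR, adjusted p = 0.0412). Uqcr10 and Uqcrh, the hinge protein that docks cytochrome c, were at 1.28 ± 0.47 and 1.22 ± 0.41 and fell outside the threshold (edgeR, adjusted p = 0.0747 and 0.0595). Uqcrb was at 0.60 ± 0.49 (edgeR, adjusted p = 0.385).

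The larger core subunits of complex III had other values. Uqcrc2, a core protein that faces the matrix, ranged from 1.79 to 1152 CPM in dendrites with a median of 229.8 and from 154 to 1249 in somas with a median of 633. The soma was the higher compartment in 14 of 16 neurons, and the log2 fold change was -1.40 ± 0.58 (edgeR, adjusted p = 0.107), which moves to 0.087 when dendrites are rescaled to the median gene. Uqcrfs1, the Rieske iron-sulfur protein, had 0 to 591 CPM in dendrites (median 253) and 277 to 1158 in somas (median 517). Its soma was higher in 15 neurons, with a log2 fold change of -1.33 ± 0.58 (edgeR, adjusted p = 0.123). DESeq2 called both genes higher in somas, Uqcrc2 at -1.62 ± 0.50 on the log2 scale (DESeq2, adjusted p = 0.00416), in a test that called 46.2% of all genes in that direction and 4.26% in the other. Uqcrc1, the other core protein, was at 0.27 ± 0.67 (edgeR, adjusted p = 0.796).

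Cyc1, which encodes the heme protein cytochrome c1 of complex III, was listed at 0 in all 32 libraries of the 3′UTR table. In the exon counts of the same libraries it had 121 to 5022 reads in each dendrite library and 107 to 7846 in each soma library. The 0 in the 3′UTR table is thus not a lack of reads from the gene, and on exons its log2 fold change was 0.47 ± 0.55 (edgeR, adjusted p = 0.593). Cycs, the soluble carrier between complexes III and IV, ranged from 1.99 to 789 CPM in dendrites (median 229.9) and from 166 to 799 in somas (median 333.5). Its log2 fold change was -0.69 ± 0.61 (edgeR, adjusted p = 0.423), and the soma was higher in 11 neurons. Rescaling to the median gene put Cycs at 0.80.

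None of the 4 genes of complex II, succinate dehydrogenase, passed the test, and their median log2 fold change was -0.53. Sdha, the flavoprotein that oxidises succinate, had medians of 786 CPM in dendrites and 435 in somas and a log2 fold change of 0.84 ± 0.50 (edgeR, adjusted p = 0.238), with dendrites higher in 13 neurons. Sdhb, the iron-sulfur subunit, was at -0.55 ± 0.58 and Sdhd, a membrane anchor, at -0.51 ± 0.64 (edgeR, adjusted p = 0.512 and 0.580). Sdhc, the other anchor, had 0 to 382 CPM in dendrites with a median of 151 and 189 to 849 in somas with a median of 296. Dendrites were higher in only 3 neurons for Sdhc, and the log2 fold change was -1.13 ± 0.64 (edgeR, adjusted p = 0.213). DESeq2, which called 46.2% of all genes higher in somas, called Sdhc there at -1.41 ± 0.46 (DESeq2, adjusted p = 0.00738). Rescaling to the median gene put Sdhc at 0.36.

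In the ATP synthase the values differed between the parts of the enzyme, a description without a test of that difference. The 3 small membrane subunits e, f and g, encoded by Atp5k, Atp5j2 and Atp5l and known for joining the enzyme into dimers, had a median log2 fold change of 1.54. Atp5j2 ranged from 315 to 3498 CPM in dendrites with a median of 1219 and from 190.3 to 723 in somas with a median of 329. It was higher in all dendrites but those of neuron 14, at 1.63 ± 0.45 on the log2 scale (edgeR, adjusted p = 0.0258). Atp5k had 466 to 7460 CPM in dendrites (median 1627) and 226 to 1536 in somas (median 480.4). It was higher in the dendrites of 16 of 16 neurons, with a log2 fold change of 1.46 ± 0.40 (edgeR, adjusted p = 0.0260). Atp5l was at 1.54 ± 0.66 and did not pass (edgeR, adjusted p = 0.115), and reads of Atp5l and its listed copy Atp5l2 may be split between them.

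The F1 head, which holds the catalytic sites, had a median of 0.35 over its 5 genes. Atp5e, the small epsilon subunit of the head, ranged from 354 to 1577 CPM in dendrites (median 628.5) and from 132 to 503 in somas (median 280.2). It was higher in the dendrites of 16 of 16 neurons, although its log2 fold change of 1.26 ± 0.48 did not pass the threshold (edgeR, adjusted p = 0.0832). Atp5a1, the alpha subunit, was at -0.17 ± 0.35 and Atp5b, the catalytic beta subunit, at 0.35 ± 0.32 (edgeR, adjusted p = 0.741 and 0.433). The sign of Atp5a1 changed with the filter, the scaling and the counted feature.

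The 4 genes of the peripheral stalk had a median of 0.67, from -0.15 for Atp5f1 to 0.76 for Atp5j, and none passed. Subunit c of the rotating ring is encoded by 3 genes that give the same mature protein. Atp5g1 was at 0.73 ± 0.39 and Atp5g3 at 0.17 ± 0.30 (edgeR, adjusted p = 0.191 and 0.706), and Atp5g3 turned to -0.09 with DESeq2. Atp5g2 held 110 reads over all dendrites and 229 over all somas, and its 1.04 ± 0.80 rests on these few reads (edgeR, adjusted p = 0.356). Atp5s and Atp5sl, which are not subunits of the core enzyme, were the only members under the median gene, at -3.64 ± 1.66 and -2.16 ± 1.35 (edgeR, adjusted p = 0.134 and 0.260). Atp5s was read in 10 of 16 dendrite libraries, with a median of 0.862 CPM, and in all somas, with a median of 29.1.

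As a share of all 3′UTR reads, the 50 members took 4.82% ± 1.79 of the reads of dendrites and 2.88% ± 0.545 of those of somas (SD, n = 16 each). The paired difference was 1.94 percentage points ± 1.51 (SD, n = 16), and dendrites had the larger share in 15 neurons. Neuron 14 was the exception, with 2.78% in dendrites and 3.51% in the soma. Complex IV took 2.06% ± 0.900 of dendrite reads and 0.782% ± 0.225 of soma reads (SD, n = 16 each), and its dendrite share was larger in 14 neurons by a mean ratio of 2.79 ± 1.16 (SD, n = 16). For complex III the shares were 0.539% ± 0.203 and 0.346% ± 0.0966, and for complex V 2.05% ± 0.751 and 1.57% ± 0.272 (SD, n = 16 each). Complex II took 0.142% ± 0.0588 in dendrites and 0.149% ± 0.0479 in somas, with the larger share in dendrites in 7 of 16 neurons. Without mitochondrially encoded genes in the total, the members took 5.93% ± 2.75 and 2.95% ± 0.592 (SD, n = 16 each).

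**Figure D3:**
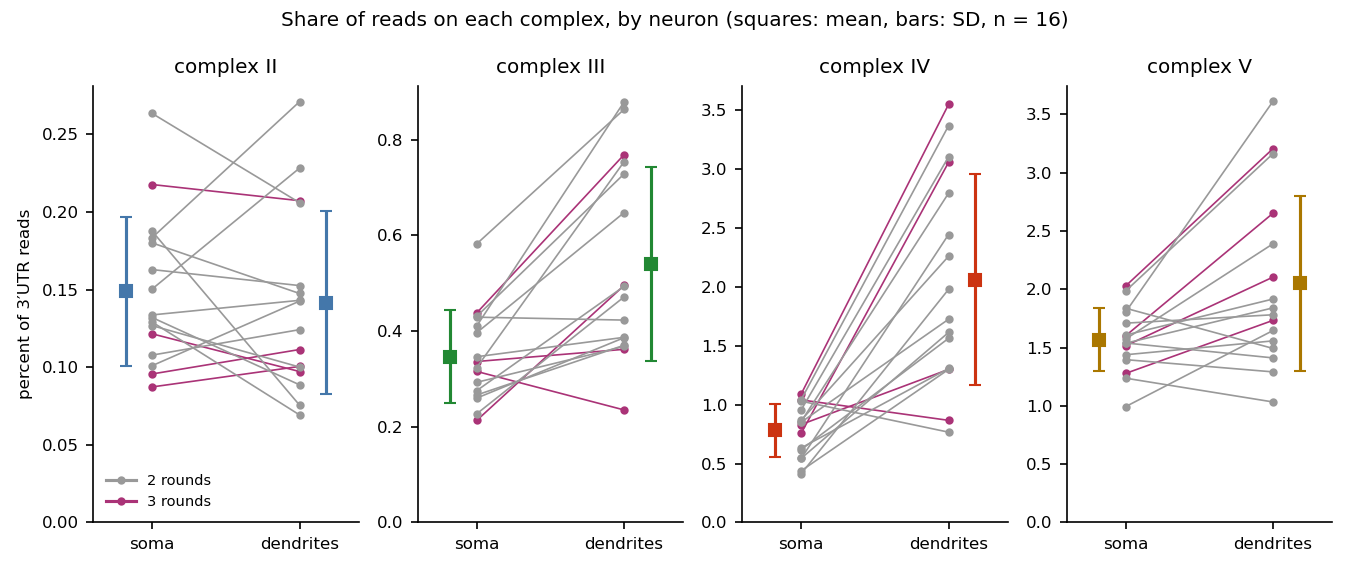
Percent of 3′UTR reads on the genes of each complex in the soma and dendrites of each neuron, with lines joining a neuron, grey for 2 rounds and purple for 3 rounds of amplification, and squares with bars for the mean and SD (n = 16). Complex IV goes from a mean of 0.782% to 2.06% and complex II from 0.149% to 0.142%.

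Neurons differed from each other in the size of the difference. The median log2 ratio over the 43 members tested, with a pseudocount of 1 CPM, was above 0 in 14 of 16 neurons and ranged from -0.51 in neuron 14 to 1.81 in neuron 3. In neuron 13 it was 0. Of the 43 members, between 13 (neuron 14) and 38 (neuron 3) were higher in dendrites. The median over complex IV was below 0 in neurons 2 and 14, at -0.21 and -0.60. The dendrites of neuron 2 gave the fewest reads of any library, and mitochondrially encoded RNA took 2.39% of its dendrite reads and 4.30% of those of neuron 14, the lowest shares among dendrites. The pyramidal marker sums of these dendrites were also the lowest, at 404.5 and 655 CPM. Over all dendrites, the median was 2669 CPM for this sum and 2302 for Map2 alone. The edgeR test called 12 members higher in dendrites without neuron 2 and 13 without neuron 14, beside 113 and 82 of all genes. It called 7 members without neuron 3 or without neuron 7, beside 71 and 55 of all genes. Without neuron 15, it called 17 members and 119 of all genes. That neuron had the largest share of mitochondrially encoded RNA in dendrites, 35.8%. With all 16 neurons, 11 members and 90 of all genes were called. Of the 11 members, Uqcr11 was called in 7 and Cox7a2 and Uqcrq in 8 of the 16 fits that each leave out 1 neuron. The part of these values in the result was not tested.

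Across neurons, the log2 ratio had a median SD of 1.12 over the 43 members and of 2.82 over all genes tested, as a description, since members with many reads have less counting error. By complex the median SD was 1.76 for II, 1.22 for III, 1.20 for IV and 0.98 for V.

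The summed level of the astrocyte markers was higher in dendrites in 10 of 16 neurons, with Aqp4 at a log2 fold change of 3.23 ± 1.41 (edgeR, adjusted p = 0.120). The other markers tested, Slc1a3 and Slc1a2, were at 0.71 ± 1.33 and 0.45 ± 0.82 (edgeR, adjusted p = 0.718 and 0.711). The 3 dendrite libraries with the largest sums, of neurons 8, 3 and 6 (1675, 1193 and 904 CPM), had members' shares of 4.28%, 7.29% and 3.11%, and the 3 with the smallest sums, of neurons 15, 12 and 11 (0, 3.59 and 17.1 CPM), had 7.99%, 5.53% and 7.49%. The part of astrocyte RNA in the result was not tested.

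Most members were read in nearly all dendrites. Of the 50, 41 were read in 15 or 16 of the 16 dendrite libraries, a share to set beside 17.1% of the 10880 genes tested. In all 32 libraries, 37 members were read. The 9 members outside the 41 were the 7 that failed the filter, Atp5s and Atp5sl. When the dendrite libraries were sampled down to the smallest of them, 39 members kept a read in 15 or more.

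Counts on exons, which do not depend on the definition of a 3′UTR, gave 16 of 43 members tested higher in dendrites and 0 higher in somas, against 1.0% and 2.62% of 9804 genes. The 16 included all 11 called on 3′UTRs, with Atp5e, Cox5b, Cox7b, Uqcr10 and Uqcrh beside them. Cox6a1 was at 2.61 ± 0.35 on exons (edgeR, adjusted p = 3.95e-10). The members took 6.71% ± 3.10 of the exon reads of dendrites and 3.20% ± 0.634 of those of somas (SD, n = 16 each). Both tables come from the same libraries, so the exon values are not independent of the 3′UTR values.

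The direction of the members depended on what the libraries were scaled to. A share of reads does not give the amount of RNA, and less RNA per compartment cannot be told apart from a smaller sampled volume. Scaling by spike-in reads, in the 14 neurons whose labels record added spike-in RNA, called 0 members on the dendrite side and 17 on the soma side, against 0.152% and 62.9% of 10537 genes. None of the 11 members called higher in dendrites with TMM scaling was among these 17. The members' median was then -1.70 and that of all genes -3.97, a gap of 2.27. Under this scaling, which relates each library to an equal amount of added RNA, Cox6a1 was at -0.21, Cox8a at -0.49, Cox4i1 at -0.53 and Cox7c at -0.54, while Cycs was at -3.07 and Uqcrc2 at -4.16. Members' reads per spike-in read were lower in dendrites in 11 of the 14 neurons. Rescaling dendrites so that the median gene lies near 0 called 30 members higher in dendrites and 0 in somas, against 5.04% and 0.846% of all genes. DESeq2 called 17 members on the dendrite side and 5 on the soma side, against 4.26% and 46.2% of all genes. The gap between members and all genes was between 1.70 and 2.48 in 12 of the 14 ways of processing, and smaller without a filter on low counts (0.83) and without pairing (1.16). A change of scaling alone moves members and all genes by about the same amount, so a similar gap under it is no separate test.

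**Figure D4:**
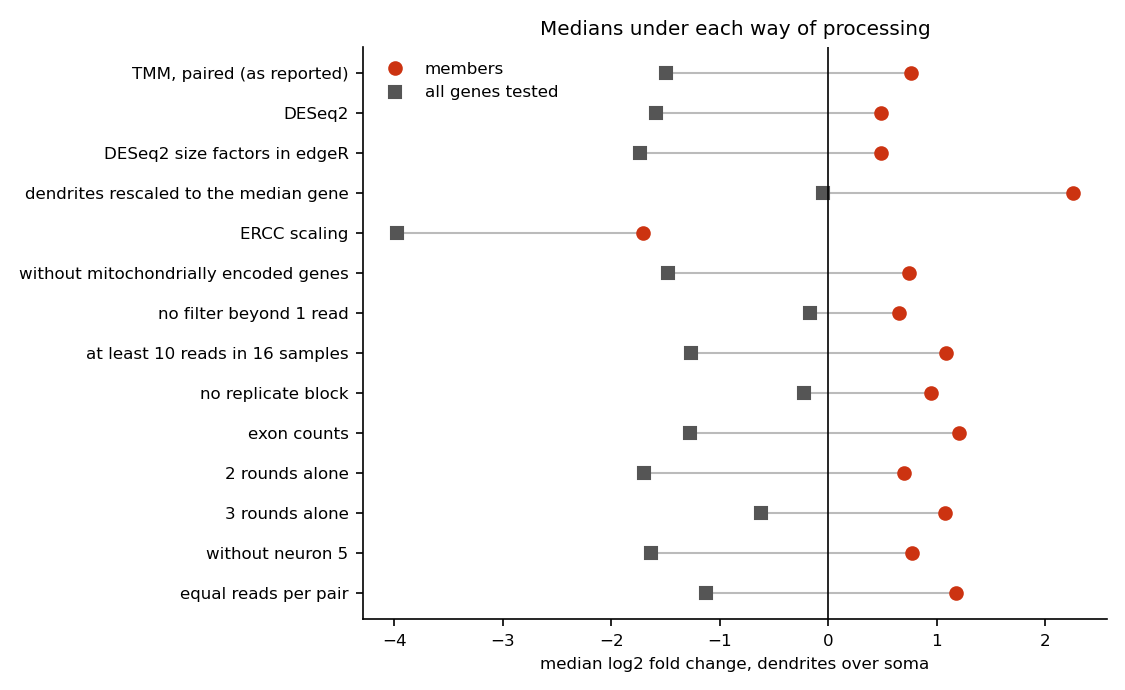
Median log2 fold change, dendrites over soma, of the members (red circles) and of all genes tested (grey squares) under each of the 14 ways of processing, joined by a line. The members lie above all genes in each, and below 0 with spike-in scaling, where they are at -1.70 and all genes at -3.97.

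The difference of the compartment effect between neurons with 2 and with 3 rounds was called for 0 members and for 0.0% of all genes by edgeR, with 0 members and 288 genes at an unadjusted p under 0.05. DESeq2 called 0 members and 48 genes. The median over neurons of the members' median log2 ratio was 0.91 in the 12 neurons with 2 rounds and 1.02 in the 4 with 3 rounds. A call that misses the threshold with 12 neurons against 4 does not show that the effects are alike.

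The 11 members called had short coding sequences. Across the 41 members tested with an annotated length, Spearman's rho between coding length and log2 fold change was -0.685, as a description over genes that share their libraries, and over 9110 tested genes with a length it was -0.0845. Coding length had a median of 246 bases in the 11 members called higher in dendrites, 457.5 in the 30 that were not and 1386 in all genes tested. Among genes of up to 300 coding bases, the 14 members had a median log2 fold change of 1.47 and all 195 genes, the members included, had -0.06. From 301 to 450 bases the values were 0.73 for 11 members and -0.68 for 466 genes. From 451 to 600 bases 6 members were at 0.11 and 594 genes at -1.25, and from 601 to 900 bases 5 members were at -0.15 and 1227 genes at -1.72. The 2 members from 901 to 1500 bases were at -0.57, with 2503 genes at -1.83. The 3 members from 1501 to 3000 bases had a median of 0.35, with 2868 genes at -1.87, so the members' medians did not fall through all classes. Annotated 3′UTRs had medians of 186 bases in the called members, 272.5 in those not called and 1214 in all genes tested. Length, position in the complex and role go together in these enzymes and cannot be told apart here.

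**Figure D5:**
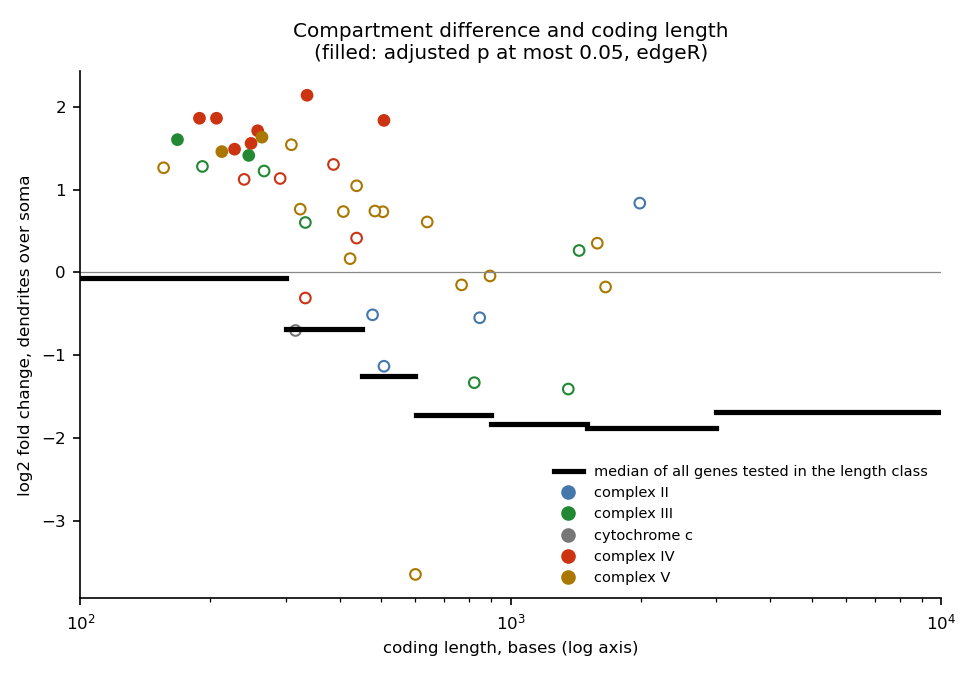
Log2 fold change, dendrites over soma, against coding length in bases on a log axis, for the 41 members tested with an annotated length, with filled points for the 11 called with TMM scaling, and black bars for the median of all genes tested in each length class. Called members have between 168 and 507 coding bases, and all of them turn below 0 with spike-in scaling, where none of them is called.

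The second table counts reads on the last 500 bases of each 3′ end, and 26 members have 1 such end and 24 have several. The share of reads on the higher-numbered of the 2 most used ends was compared within neurons by an exact signed-rank test in 23 members and 3508 genes in all, which called 0 members and 0.0% of genes. At an unadjusted p under 0.05 there were 4 members and 159 genes. In Sdha the share was 0.00356 ± 0.00537 in dendrites and 0.0106 ± 0.0133 in somas (SD, n = 16; exact signed-rank test, p = 0.0103, adjusted p = 0.818). For Atp5a1 it was 0.0258 ± 0.0218 against 0.0394 ± 0.0236, for Atp5f1 0.0143 ± 0.00899 against 0.0273 ± 0.0163, and for Atp5g1 0.995 ± 0.0112 against 0.984 ± 0.0251 (SD, n = 16 each, adjusted p of 0.818, 0.818 and 0.949 from the exact test). In these genes a single end took nearly all reads in both compartments.

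The assembly factors of the same complexes, which build the enzymes and are not part of them, had lower medians. None of the 4 lists had a gene called higher in dendrites by edgeR, where 1 gene reached an unadjusted p under 0.05 in that direction. Toward the soma, 1 gene was called, beside 5.71% of all genes, and 1, 1, 5 and 2 genes of the lists for complexes II, III, IV and V reached an unadjusted p under 0.05. That gene was Ttc19, which takes part in the turnover of the Rieske protein of complex III, with medians of 3.11 CPM in dendrites and 96.6 in somas and a log2 fold change of -3.90 ± 1.17 (edgeR, adjusted p = 0.0361). Ttc19 was not called with dendrites rescaled (-2.43), without the pairing (-1.17) or with 3 rounds alone (-0.61) (edgeR, adjusted p = 0.246, 0.512 and 0.968). It also missed the threshold without a read filter, with at least 10 reads and at equal reads per pair (edgeR, adjusted p = 0.0762, 0.0674 and 0.0698). The other settings kept the call, among them DESeq2, exon counts and 2 rounds alone. The medians were -2.56 for the 2 factors of complex II, -2.03 for the 5 of complex III and -1.67 for the 17 of complex IV. The list for complex V, with a median of -1.11 over 4 genes, holds the inhibitor gene Atpif1, whose protein blocks ATP hydrolysis. Atpif1 had medians of 667 CPM in dendrites and 289 in somas and a log2 fold change of 1.15 ± 0.50, which did not pass (edgeR, adjusted p = 0.116). Usmg5 and 2010107E04Rik, small ATP synthase subunits whose symbols the rule does not match, were at 1.15 ± 0.44 and 1.17 ± 0.43 and did not pass either (edgeR, adjusted p = 0.0835 and 0.0783).

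Of 9 tested nuclear regulators of mitochondrial genes, 0 were called in either direction by edgeR, 1 at an unadjusted p under 0.05 (Pprc1, in the soma direction), and their median was -1.87. The 44 tested genes with symbols starting in Nduf, most of them for complex I, had a median of 0.33, with 3 calls on the dendrite side and 1 on the soma side. For the 82 tested ribosomal protein genes the median was 1.04, with 8 called higher in dendrites and 0 in somas. Of all genes tested, 0.827% were called higher in dendrites and 5.71% in somas. These values stand beside those of the members, and the differences between the lists were not tested. The protein-coding genes of mitochondrial DNA were not analysed here.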

How the data were processed

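The deposited tables hold read counts made by the authors: reads per gene on merged 3′UTRs, reads per 3′ end (the last 500 bases, with closer ends merged), and reads per gene on exons with ERCC spike-ins in 1 file per library. According to the methods, reads were trimmed of adapters and poly-A, aligned to mm10 with STAR (version 2.4.0 in the submitters' processing notes), and uniquely mapped reads were counted by strand with VERSE. The libraries are poly(A)-selected and amplified, so 3′ ends are favoured and counts are not molecules. All 32 columns were mapped to a neuron and a compartment by their labels. The sequencer of each library is not given in the sources used here.

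Counts were tested with edgeR 4.0.16 in R 4.3.3 (TMM scaling, robust quasi-likelihood fit, neuron as a block) over the 10880 genes read in 16 or more libraries, with Benjamini-Hochberg adjustment over all of them. Standard errors are the fold change over the root of F. Levels are CPM of 3′UTR reads on TMM-scaled library sizes and were compared within a gene only. The tests were also run on simulated data, with outcomes that are not given here, so the calls draw no support from that check. A gene that was not called may still differ. DESeq2 1.42.0, other scalings, filters, features and subsets were run as alternatives. Counting and figures used Python 3.11.15, NumPy 2.4.6, pandas 2.3.3 and SciPy 1.17.1. The end test used genes with at least 10 reads in both compartments of at least 5 neurons. The numbering of the ends carries no coordinates, so the share on the higher-numbered end stands in for the distal share that had been planned, and which end is distal is unknown. Lengths and signals come from GENCODE M21, with 1 protein-coding transcript per symbol, the best by APPRIS rank and then by coding length.

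Same-numbered libraries come from the same cell. The correlation of their deviations from the group means was 0.0887 ± 0.0772 (SD, n = 16 pairs), against -0.00559 ± 0.0526 (SD, n = 240) between different neurons, and no libraries were identical. The genes and lists were chosen with earlier results of these data known. The rule for named genes took every member called, the highest and lowest of each complex, 4 of the members the study names (Uqcrq, Uqcr11, Atp5e and Atp5k), paralog groups, members that failed the filter, members with an unadjusted p under 0.05 in the end test, and, of the lists, called genes and Atpif1. Other genes were named after their values were seen, to complete a complex or a count. The citrate cycle list is not reported here.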

Additional observations from a re-analysis of the deposited data

How the results depend on the processing

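The count of 11 members called higher in dendrites became 17 with DESeq2 (5 higher in somas) and 30 with dendrites rescaled to the median gene (median 2.26). It was 8 with DESeq2's size factors in edgeR and 9 without mitochondrially encoded genes, with no gene of complex III in either. Exon counts and equal reads per pair gave 16 each. The count was 4 without a filter beyond 1 read (0.83 above the median gene) and 17 with at least 10 reads in 16 libraries. Neurons of 2 rounds alone gave 4 and those of 3 rounds 0. ERCC scaling gave 0 in dendrites, 17 in somas (none of the 11 among them) and a median of -1.70. The exon share in dendrites was 6.71%. Without the replicate block, which ignores the pairing by neuron, 17 members were called. Among the settings above, the share of all genes called is given only for DESeq2, spike-in scaling, rescaling and exon counts. For the others, the counts do not tell a change in the members from a change in all calls. In a check chosen after seeing the data, leaving out each neuron in turn gave 7 to 17 members, 7 without neuron 3 or 7 and 17 without neuron 15, with 0 higher in somas each time. Of all genes, 55 without neuron 7 to 119 without neuron 15 were called higher in dendrites in these fits. Cox4i1, Cox6a1, Cox6b1, Cox6c, Cox7c and Cox8a were called in all 16 of these fits, Atp5j2 and Atp5k in 15, Cox7a2 and Uqcrq in 8 and Uqcr11 in 7. The cause of these shifts was not tested.

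Signs turned as follows, in log2. With ERCC scaling, Atp5e was at -1.18, Atp5g1 -1.76, Atp5g2 -1.31, Atp5g3 -2.35, Atp5j2 -0.90, Atp5k -1.05, Atpif1 -1.34, Cox4i1 -0.53, Cox6a1 -0.21, Cox6a2 -1.45, Cox6b1 -0.73, Cox6c -0.94, Cox7a2 -0.90, Cox7b -1.30, Cox7c -0.54, Cox8a -0.49, Sdha -1.82, Uqcr11 -0.83 and Uqcrq -1.03. With rescaling, Atp5a1 was at 1.32, Atp5f1 1.34, Cox7a2l 1.18, Cycs 0.80, Sdhc 0.36 and Uqcrc2 0.087. Atp5g3 was at -0.093 with DESeq2, -0.093 with its size factors in edgeR and -0.024 with 2 rounds. Atp5a1, Atp5f1 and Cox7a2l were at 0.17, 0.18 and 0.029 with at least 10 reads, 0.29, 0.14 and 0.11 on exons, 0.26, 0.28 and 0.11 at equal reads per pair, and 0.51, 0.21 and 0.65 with 3 rounds, where Cycs was at 0.28 and Uqcrc2 at 0.18. Without the block, Atp5f1 was at 0.060 and Cox7a2l at 0.15. Of the other values for named genes, 237 kept their direction and side of the threshold, 32 passed it newly and 37 no longer passed. Depth limits the genes with few dendrite reads, such as Atp5g2 and Atp5s.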
